A study of Mus musculus with 36 samples.

Results

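Growth factors that act on epithelial cells were followed in mouse pancreatic fibroblasts that had been cultured with pancreatic tumour cells or alone. The 10 genes were chosen by symbol in the count table and comprised 4 ErbB family ligands (Areg, Ereg, Hbegf and Nrg1), the receptor Egfr, 4 fibroblast growth factors (Fgf2, Fgf7, Fgf10 and Fgf18) and Hgf. They were 10 of 39017 genes in the table, each symbol matched 1 row, and all 10 were among the 14439 genes that passed the filter on low counts. The fibroblasts were of the C57BL/6 strain. In 8 groups they had shared the dish with GFP-expressing tumour cells for 48 h, and the GFP was then used to sort the tumour cells away. The partner was tumour clone E, H, K, M, N, T or V, or KPC1, a line name that the labels do not explain. The ninth group was the mono-culture, fibroblasts without tumour cells. Each group held 4 libraries, 36 in all, and nothing in the labels says whether the 4 came from separate cultures, so p-values measure the spread between these libraries, which may be technical. Genotype, passage and clonality of the fibroblasts are not given in the sources used here, and the labels do not say whether mono-culture cells passed through the sorter.

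ErbB ligands are made as membrane-bound precursors that metalloproteases such as ADAM17 release, and they bind receptor tyrosine kinases of the ErbB family. Amphiregulin (Areg), epiregulin (Ereg) and heparin-binding EGF-like growth factor (Hbegf) bind EGFR, the last 2 also ERBB4, whereas neuregulin 1 (Nrg1) binds ERBB3 and ERBB4. FGF7 and FGF10 are classic mesenchymal factors that act on the epithelial splice form of FGFR2, FGF2 binds most FGF receptors and FGF18 acts on FGFR3 among others. Hepatocyte growth factor (Hgf) is made by fibroblasts as an inactive precursor and, once cleaved, activates the receptor MET on epithelial cells. Signals from all of these receptors run through the MAPK cascade, which induces its own inhibitors (the Dusp, Spry and Spred genes) and the ETS factors Etv1, Etv4 and Etv5.

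Library totals ranged from 12532122 to 21985538 counts with a median of 18001907. The 10 fibroblast markers, led by the collagen genes Col1a1 and Col1a2, summed to between 10902 and 32116 CPM (read counts scaled to library size with TMM) in every library. With clones H, T and V and KPC1, 5, 6, 5 and 6 of these 10 fell and 3, 4, 2 and 4 rose against the mono-culture, with list medians of -0.51, -0.59, -0.48 and -0.86 on the log2 scale, whereas 0 fell and 2 to 4 rose with clones E, K, M and N. Of all genes tested, 54.2%, 49.8%, 58.3% and 59% rose or fell with clones H, T and V and KPC1. With clones E, K, M and N this share was 19.1% to 39%. Of 12 epithelial markers 8 were tested and 6 rose with the mean of the clones, and the sum of the 12 was 2.74 to 4.18 CPM in the mono-culture libraries and 22.04 to 868 CPM in the co-culture libraries. The keratins Krt8, Krt18 and Krt19 made up most of that sum, whereas Epcam and Cldn4 were at or near 0 in every group. The group mean of the epithelial sum was lowest with clone V (112 ± 94.3 CPM, SD, n = 4) and highest with clone N (555 ± 103 CPM), and its values are set beside the results below. The 5 macrophage markers in the table summed to group means of 11.3 CPM (clone V) to 28.2 CPM (clone T), with 15.4 CPM in the mono-culture, mostly from Cd68 and Cd14. With the mean of the clones Cd68 rose and Lyz2 fell, and Ptprc, found on all leukocytes, was at 0.0530 CPM or less in every group mean. The 5 endothelial markers summed to group means of 1.63 to 3.60 CPM, Tek fell with the mean of the clones, and Cdh5 was at 0.0580 CPM or less in every group mean. Replicate 4 had the lowest value of its group for Hbegf, Ereg, Nrg1 and Egfr in 6 of the 8 co-cultures each. The number was 5 for Areg and Fgf18, 4 for Fgf7, 3 for Fgf2, 1 for Fgf10 and 0 for Hgf. Counts of genes called are therefore also given without the 9 libraries numbered 4, a choice made after seeing the data.

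Growth factor transcripts in the fibroblasts moved in both directions. When the 7 clonal co-cultures were averaged and set against the mono-culture, 7 of the 10 genes rose (Areg, Ereg, Hbegf, Nrg1, Egfr, Fgf2 and Hgf), 2 fell (Fgf7 and Fgf18) and Fgf10 did not pass the test (edgeR quasi-likelihood test, Benjamini-Hochberg adjusted p under 0.05). Of all genes tested, 49.2% were called in this comparison, 24.3% higher and 24.9% lower. The log2 fold changes were 4.51 ± 0.76 (SE) for Areg, 2.23 ± 0.31 for Ereg, 2.10 ± 0.28 for Hbegf, 1.69 ± 0.21 for Fgf2, 0.999 ± 0.15 for Nrg1, 0.90 ± 0.19 for Egfr and 0.38 ± 0.11 for Hgf. They were -0.53 ± 0.11 for Fgf7, -0.25 ± 0.17 for Fgf10 and -2.35 ± 0.42 for Fgf18, against a median of 0.0058 over all genes. Without the 9 libraries numbered 4, 8 of the 10 genes were called, since Hgf no longer passed (log2 fold change 0.27, adjusted p = 0.088). Among all genes, 6828 were called in that fit. In these bulk libraries a larger share of cells that express a gene and more RNA of that gene per cell cannot be told apart.

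**Figure D1:**
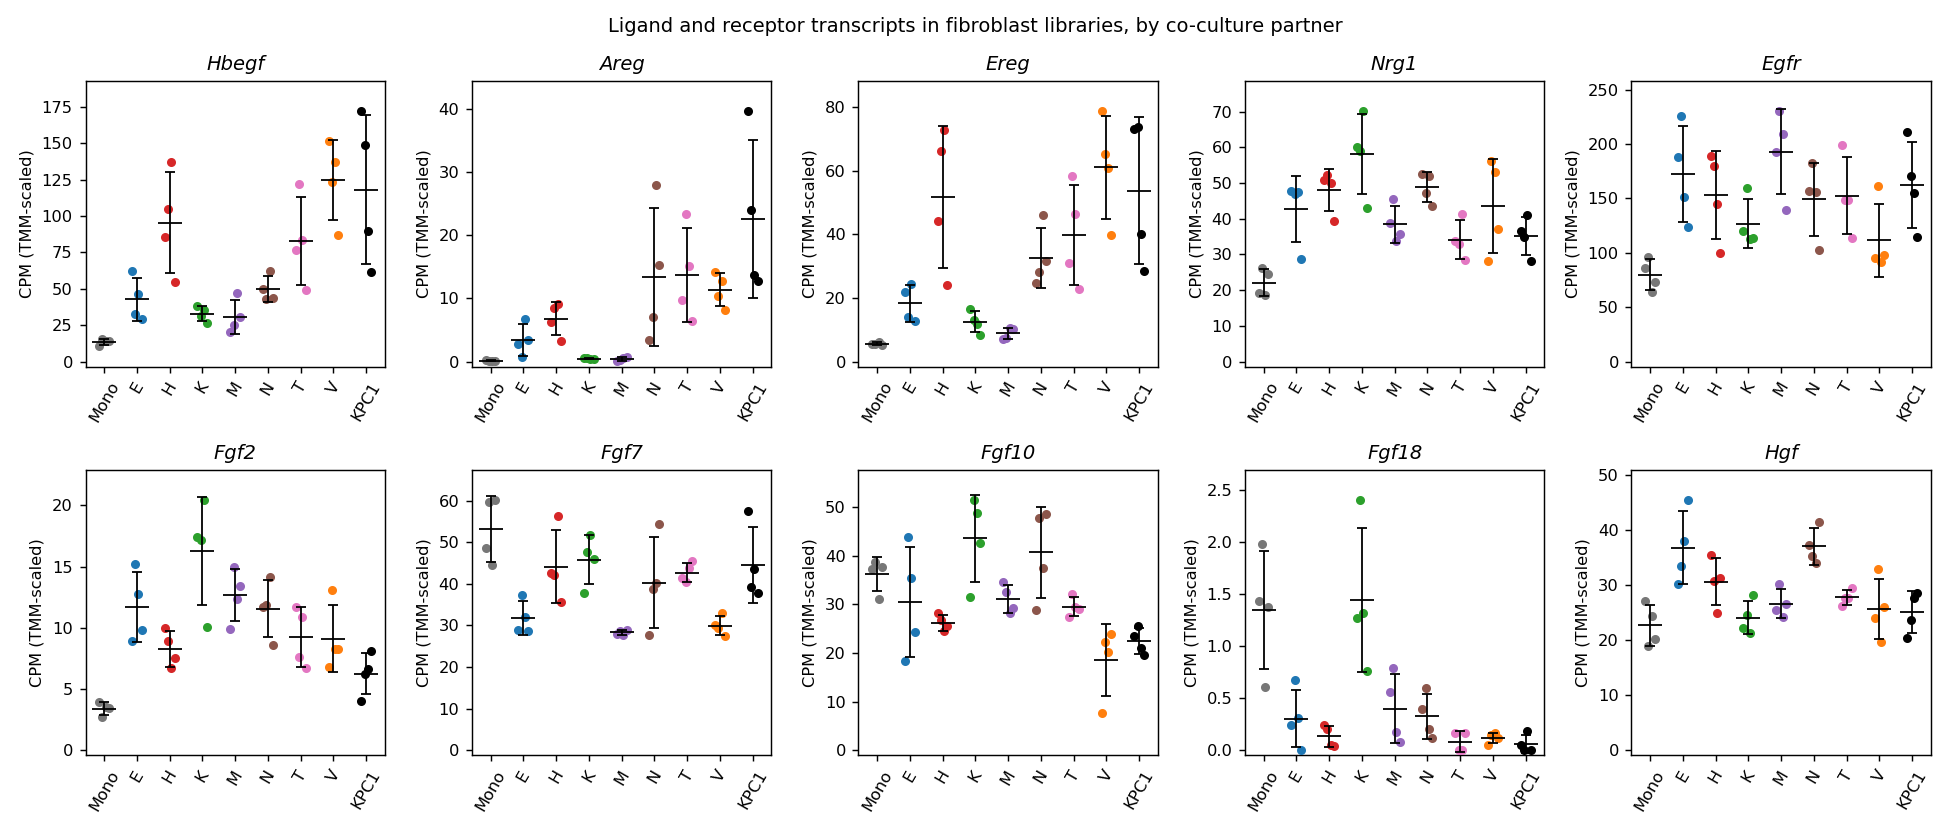
CPM of each of the 10 genes (vertical axes, linear, from 0) in the 4 libraries of each of the 9 groups (horizontal axes); points are libraries, bars are the mean and SD. Hbegf and Ereg of all 32 co-culture libraries lie above the 4 mono-culture libraries, Areg is near 0 with clones K and M, and Fgf18 overlaps the mono-culture with clone K.

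By partner, 9 of the 10 genes were called with clone E, where 32% of all genes tested were called. The count was 8 with clone H against 54.2% of all genes, 5 with clone K against 19.1%, 6 with clone M against 23%, 9 with clone N against 39%, 7 with clone T against 49.8%, 8 with clone V against 58.3% and 8 with KPC1 against 59%. The 8 comparisons share the same 4 mono-culture libraries. Nrg1, Fgf2 and Hbegf rose with all 8 partners, Ereg and Egfr with 7, Areg with 6 and Hgf with 3. Fgf18 fell with 7 partners, Fgf7 with 4 and Fgf10 with 2. Without the libraries numbered 4 the 8 counts, in the order above, were 9, 7, 5, 5, 9, 7, 9 and 7. Among all genes, 4218, 7649, 3049, 2997, 4962, 7061, 8189 and 8550 were called in those fits, in the same order.

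**Figure D2:**
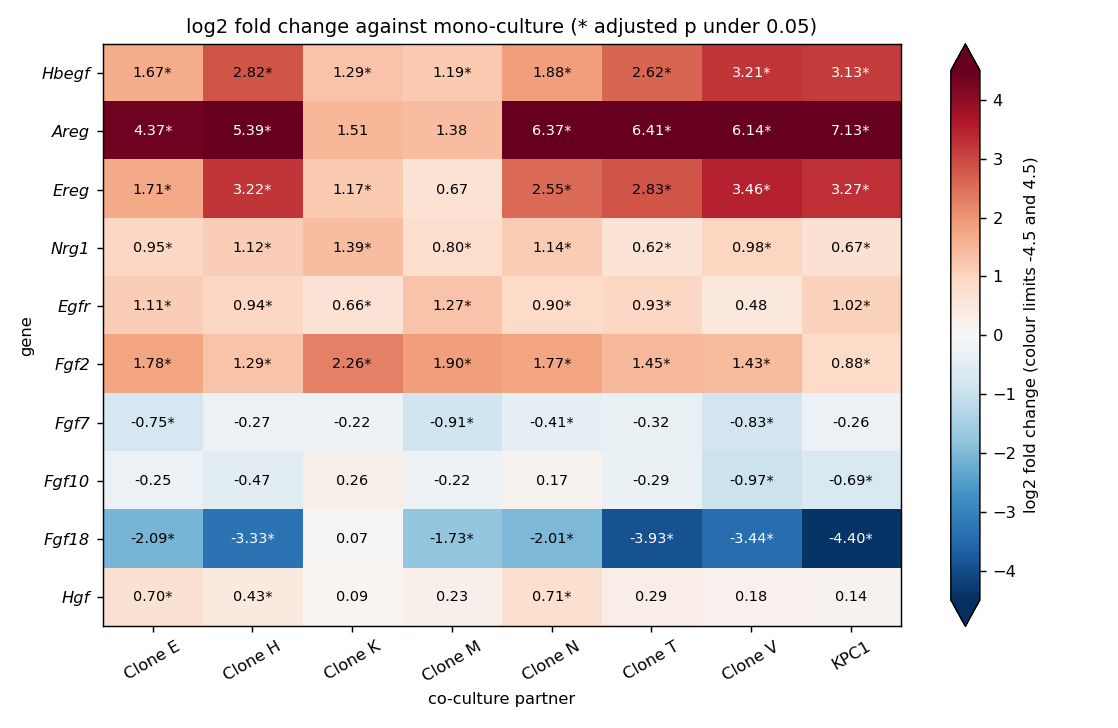
Fitted log2 fold changes of the 10 genes (rows) in each co-culture against the mono-culture (columns), with an asterisk where the edgeR adjusted p was under 0.05; colours end at -4.5 and 4.5. Areg has the largest rises, up to 7.13 with KPC1, and Fgf18 the largest falls, down to -4.40 with KPC1. Fitted values of Areg and of Fgf18 rest on few counts in the lower group and depend on the prior count.

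Areg (ENSMUSG00000029378, chr5:91139599-91148432, plus strand, mm10) encodes amphiregulin, a low-affinity EGFR ligand. The 4 mono-culture libraries held 5, 1, 2 and 3 counts of it, 0.0550 to 0.275 CPM. In KPC1 co-culture replicates 1 to 4 had 39.6, 23.9, 13.7 and 12.7 CPM, and with clone T 9.72, 23.4, 15.1 and 6.42 CPM. With clone N the 4 values were 3.36, 7.04, 27.9 and 15.3 CPM, a wide spread within 1 group, whereas with clone V they lay closer together at 14.1, 10.4, 12.8 and 8.20 CPM. Clone H gave 6.29, 8.38, 9.13 and 3.27 CPM and clone E 2.78, 0.671, 6.69 and 3.38 CPM. All libraries of these 6 groups lay above all mono-culture libraries.

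With clones K and M, by contrast, Areg stayed below 1 CPM in all 8 libraries. The 4 values were 0.566, 0.520, 0.370 and 0.360 CPM with clone K, above the mono-culture range, and 0.124, 0.243, 0.630 and 0.672 CPM with clone M, which overlapped it. Neither passed the test (adjusted p = 0.37 and 0.43), with 35 and 26 counts in all against 11 in the mono-culture. Without clone N replicate 3, the highest of its group, the fitted log2 fold change of Areg with clone N went from 6.37 to 5.73. The ratio of summed counts, adjusted for library size, was 149 with KPC1 (exact 95% interval 83.1 to 299, counting error only), 88.8 with clone T (49.4 to 179), 80.5 with clone N (44.8 to 162), 74.3 with clone V (41.3 to 149), 43.1 with clone H (23.9 to 86.8) and 20.6 with clone E (11.3 to 41.8). For clones K and M it was 2.92 (1.45 to 6.38) and 2.66 (1.27 to 5.96), so that the intervals of these 2 did not reach those of the other 6. Since PCR copies are not separate molecules, intervals here and below cover counting error only.

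The 250 bases before the annotated start of Areg (RefSeq, GRCm38.p6, the same build as mm10, chr5:91139349-91139598, plus strand) are shown because Areg had the largest rise, with the cyclic AMP response element TGACGTCA in capitals. The element was searched on both strands, and its match began 61 bases before the start. The AP-1 motif TGANTCA had no match in this window, and the 2 motifs do not overlap in it. Over all 32851 promoter windows of this length, 1.55% held the first motif and 6.75% the second. A promoter entry existed for 7 of the 10 genes, with 8 starts in all, and 1 of the 8 windows held TGACGTCA and 0 held TGANTCA.
Areg: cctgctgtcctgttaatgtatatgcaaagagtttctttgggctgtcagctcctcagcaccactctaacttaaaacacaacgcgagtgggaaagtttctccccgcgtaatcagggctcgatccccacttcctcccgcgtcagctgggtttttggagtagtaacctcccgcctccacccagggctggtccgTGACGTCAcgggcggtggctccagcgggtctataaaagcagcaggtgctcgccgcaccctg

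Ereg (ENSMUSG00000029377, chr5:91074622-91093646, plus strand) encodes epiregulin and lies 46.0 kb before Areg on the same chromosome. Mono-culture libraries had 5.50, 5.67, 6.08 and 5.12 CPM, a narrow range. Ereg reached 78.9, 65.4, 60.8 and 39.8 CPM with clone V, 73.1, 73.7, 40.1 and 28.3 CPM with KPC1, 44.2, 66.4, 73.0 and 23.96 CPM with clone H and 31.2, 58.4, 46.6 and 22.97 CPM with clone T. These 4 groups overlapped one another. Clone N followed at 24.6, 28.3, 46.1 and 31.6 CPM and clone E at 21.8, 14.0, 24.5 and 12.7 CPM, and these did not overlap. Values with clone K were 16.5, 13.2, 11.9 and 8.50 CPM and with clone M 7.20, 7.41, 10.7 and 10.1 CPM, all above the mono-culture range.

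The rise of Ereg passed the test with all partners but clone M, where the fold change was 1.59 (log2 0.67 ± 0.37, adjusted p = 0.20). It was 10.98-fold with clone V (log2 3.46 ± 0.36, adjusted p = 5.0e-09), 9.65-fold with KPC1 and 2.25-fold with clone K (log2 1.17 ± 0.36, adjusted p = 0.020). The call with clone K was lost without clone K replicate 1 (log2 0.999, adjusted p = 0.074) and without mono-culture replicate 4 (1.13, 0.054).

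Hbegf (ENSMUSG00000024486, chr18:36504927-36515805, minus strand) encodes a heparin-binding ligand of EGFR that is a target of MAPK signalling in many cells. Its mono-culture values were 10.6, 15.4, 14.1 and 13.8 CPM. The 4 co-culture groups with the highest means were again clone V (152, 124, 137 and 87.2 CPM), KPC1 (172, 149, 90.0 and 61.8 CPM), clone H (85.4, 105, 137 and 54.5 CPM) and clone T (76.4, 122, 83.7 and 48.9 CPM). Clones N, E, K and M had group means of 49.8 ± 8.99, 42.8 ± 14.99, 32.99 ± 5.24 and 30.7 ± 11.48 CPM (SD, n = 4 each) against 13.5 ± 2.03 CPM in the mono-culture. In the order of group means each co-culture overlapped the next, and the lowest, clone M at 20.5 to 46.8 CPM, did not overlap the mono-culture.

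Hbegf rose 9.27-fold with clone V (log2 3.21 ± 0.33, adjusted p = 4.0e-09), 8.76-fold with KPC1, 7.08-fold with clone H, 6.13-fold with clone T, 3.69-fold with clone N, 3.17-fold with clone E, 2.45-fold with clone K and 2.28-fold with clone M. All 8 passed the test, the last with an adjusted p of 0.0072. Without clone M replicate 3, which had the highest value of that group, the last was no longer called (log2 0.91, adjusted p = 0.057).

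The 3 EGFR ligands thus had similar orders of partners. Hbegf and Ereg shared the order clone V, KPC1, clone H, clone T, clone N, clone E, clone K, clone M and mono-culture. In Areg KPC1, clone T and clone N came first, and clones K and M again came last among the co-cultures. Differences among the 7 clones passed the F-test for all 3 (adjusted p = 1.2e-06 for Hbegf, 5.2e-08 for Areg and 6.1e-08 for Ereg), with a range between the highest and lowest clone of 2.02 on the log2 scale for Hbegf, 5.03 for Areg and 2.79 for Ereg. This range cannot be negative, and its median over all genes tested was 0.70. In the F-test 9 of the 10 genes were called, against 67.5% of all genes tested, and Egfr was the exception (adjusted p = 0.054). Egfr was called without the 9 libraries numbered 4 (adjusted p = 0.015), where all 10 genes passed, among 9737 genes called in all. It was also called with replicate number added to the fit as a block (adjusted p = 0.00019).

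By the likeness of log2 CPM over the 36 libraries (Pearson r, among 11694 genes with a mean of at least 2 CPM), the genes nearest to Hbegf were Ereg (r = 0.96) and Dusp4 (0.96), which encodes a phosphatase that inactivates MAP kinases. Those nearest to Ereg were Plaur (0.97), the urokinase receptor, and Hbegf. Among those nearest to Areg was Fosl1 (0.95), an AP-1 subunit. The points share the 9 groups, and after removal of the group means r was 0.90 for Hbegf with Ereg, 0.83 for Hbegf with Dusp4, 0.83 for Ereg with Plaur and 0.72 for Areg with Fosl1. Areg and Ereg had r = 0.93, and 0.72 within groups.

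**Figure D3:**
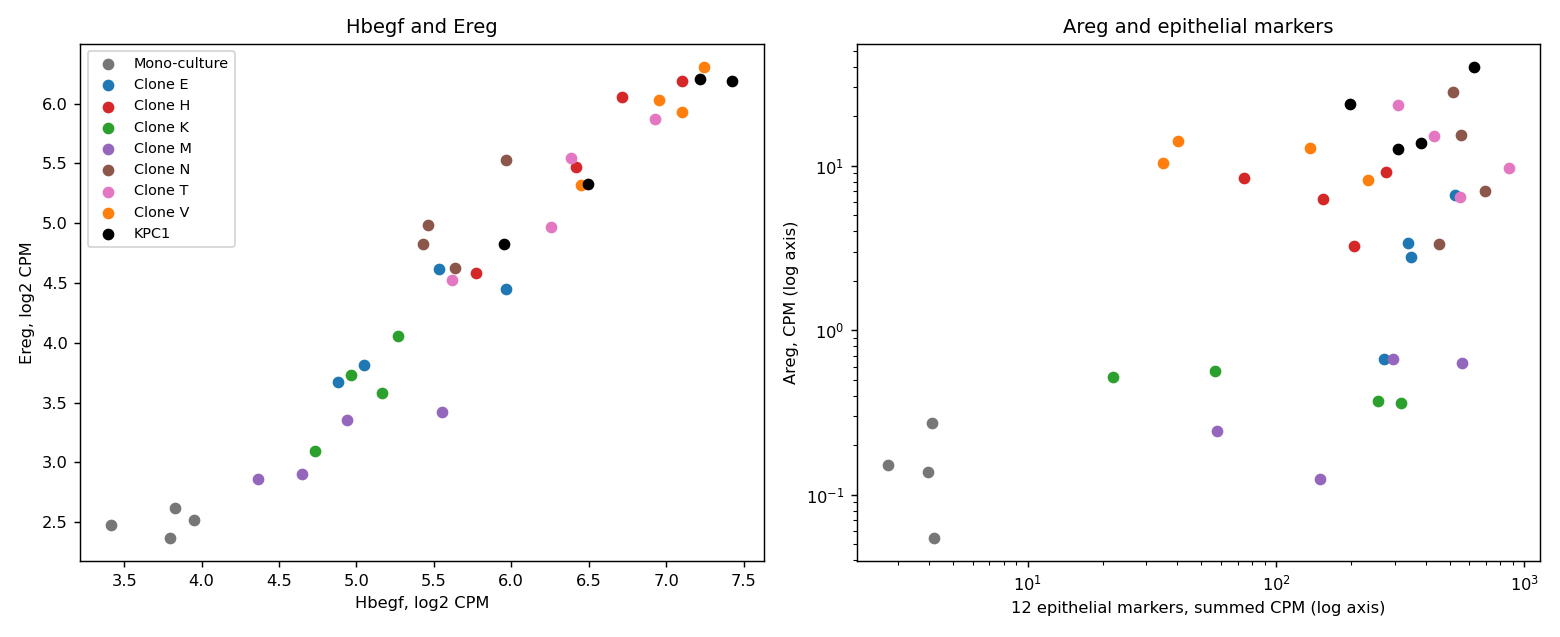
Left, log2 CPM of Hbegf against log2 CPM of Ereg in the 36 libraries, coloured by group; the mono-culture libraries lie at the lower left and those with clone V and KPC1 reach the upper right (r = 0.96). Right, CPM of Areg against the summed CPM of 12 epithelial markers, both on log axes; clones E and M overlap on the horizontal axis and, by 1 library of clone E at 0.671 CPM, on the vertical one.

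The epithelial sum was above the mono-culture range in all 32 co-culture libraries and is set beside the ligands here. Over the 32 co-culture libraries the epithelial sum had a Pearson r on log2 scales of 0.29 with Areg, -0.029 with Hbegf and -0.0050 with Ereg, and within groups of 0.066, 0.013 and -0.20. Clone V had the lowest group mean of the epithelial sum (35.2 to 235 CPM) with the highest means of Hbegf and Ereg. Clone M had a higher mean sum (266 CPM, range 57.6 to 562) and less Areg, Ereg and Hbegf than clone V in every library. Clones N and T had the highest mean sums (452 to 695 and 311 to 868 CPM) and high Areg. The part of tumour cell RNA in the ligand counts was not tested. The 4 partners with the highest Hbegf and Ereg (clones V, H and T and KPC1) were those with which 5 or 6 of the 10 fibroblast markers fell, while 2 to 4 rose. They were also those with the largest shares of all genes called, 49.8% to 59%, against 19.1% to 39% with clones E, K, M and N. Group means of the fibroblast sum, led by Col1a1 and Col1a2, were 14849 to 17172 CPM with clones V, H and T and KPC1. The mean was 21949 CPM in the mono-culture and 23285 to 26774 CPM with clones E, K, M and N. The part of this difference in the ligand values was not tested.

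Egfr (ENSMUSG00000020122, chr11:16752203-16918158, plus strand), the receptor of these ligands, rose with 7 of the 8 partners. Mono-culture libraries had 64.0 to 95.9 CPM (mean 79.8 ± 14.1, SD, n = 4). Group means in co-culture ran from 112 ± 33.4 CPM with clone V to 193 ± 38.7 CPM with clone M, and neighbouring groups overlapped throughout this order. The fold change was 2.42 with clone M (log2 1.27 ± 0.23, adjusted p = 0.00014), 2.16 with clone E, 2.03 with KPC1 and 1.58 with clone K (log2 0.66 ± 0.23, adjusted p = 0.041), and 1.40 with clone V, which did not pass (log2 0.48 ± 0.23, adjusted p = 0.073) but did without the libraries numbered 4 (0.49, adjusted p = 0.048) and without mono-culture replicate 2 (0.58, adjusted p = 0.049). The call with clone K was lost in 6 of the 36 fits that left out 1 library (log2 0.53 to 0.76 over the 36), namely without any of clone K replicates 1, 2 and 3 or mono-culture replicates 1, 3 and 4. With replicate number added to the fit as a block, Egfr with clone V also passed (log2 0.47, adjusted p = 0.0039). Over the 36 libraries Egfr had r = 0.34 with Hbegf and 0.27 with Ereg on log2 scales. The 2 genes nearest to Egfr were D8Ertd82e (r = 0.85) and Col6a1 (0.85), a collagen VI chain, with r = 0.76 and 0.70 within groups.

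Nrg1 (ENSMUSG00000062991, chr8:31814551-32884029, minus strand), the ligand of ERBB3 and ERBB4, rose with all 8 partners and with another order. Mono-culture libraries had 19.3, 26.1, 18.6 and 24.5 CPM. Clone K, among the lowest for Areg, Ereg and Hbegf, had the highest Nrg1 at 60.2, 59.0, 70.2 and 43.1 CPM, a 2.62-fold rise (log2 1.39 ± 0.18, adjusted p = 2.0e-06). KPC1 and clone T, among the highest for those ligands, had the lowest Nrg1 of the co-cultures at 36.5, 34.9, 41.2 and 28.3 CPM (1.59-fold) and 33.8, 32.97, 41.4 and 28.5 CPM (1.54-fold, log2 0.62 ± 0.18, adjusted p = 0.0053). All 32 co-culture libraries lay above all 4 mono-culture libraries. Differences among clones passed the test (adjusted p = 0.0098), with a range of 0.77 on the log2 scale against a median of 0.70 over all genes. The nearest genes were Inppl1 (r = 0.87) and Filip1l (0.85), with r = 0.74 and 0.73 within groups.

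Fgf2 (ENSMUSG00000037225, chr3:37348346-37410108, plus strand), a broadly acting factor that lacks a signal peptide, rose with all 8 partners, again most with clone K. Mono-culture values were 3.96, 2.70, 3.50 and 3.43 CPM. They were 17.4, 17.2, 20.5 and 10.1 CPM with clone K, a 4.78-fold rise (log2 2.26 ± 0.25, adjusted p = 6.5e-08). Clones M, E and N had group means of 12.7 ± 2.11, 11.7 ± 2.87 and 11.6 ± 2.30 CPM, clones T, V and H 9.26 ± 2.44, 9.11 ± 2.74 and 8.30 ± 1.46 CPM. The lowest co-culture was KPC1 at 4.06, 6.21, 6.65 and 8.10 CPM, which did not overlap the mono-culture and was 1.84-fold higher (log2 0.88 ± 0.25, adjusted p = 0.0031). The 4 clones with the highest Fgf2 (K, M, E and N) were thus the 4 with the lowest Hbegf. The difference among clones passed the test (range 0.97 on the log2 scale, adjusted p = 0.0045). Nudt4 (r = 0.92) and Postn (0.90), which encodes the matrix protein periostin, were nearest to Fgf2. After removal of the group means r was 0.58 and 0.59.

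Fgf7 (ENSMUSG00000027208, chr2:126034658-126091185, plus strand), keratinocyte growth factor, had the highest length-adjusted level of the 10 genes in mono-culture, with a mean of 20.8 ± 2.95 RPKM (reads scaled to gene length and library size, n = 4). In CPM it was 44.5 to 60.2 in the mono-culture. It fell to 27.7 to 28.9 CPM with clone M (1.88-fold, log2 -0.91 ± 0.15, adjusted p = 4.4e-05), 27.3 to 32.9 CPM with clone V (1.78-fold) and 28.7 to 37.3 CPM with clone E (1.68-fold), none of which overlapped the mono-culture. The fall with clone N was 1.32-fold (27.7 to 54.4 CPM, log2 -0.41 ± 0.15, adjusted p = 0.033) and was lost in 5 of the 36 fits that left out 1 library, namely clone N replicate 1, 2 or 3 or mono-culture replicate 2 or 4 (-0.58 to -0.28 over the 36). With clones H, K and T and KPC1 the log2 fold changes were -0.27, -0.22, -0.32 and -0.26 and did not pass the test. Without scaling beyond library size those with clones H and T and KPC1 passed (-0.37, -0.39 and -0.35). In that fit the medians over all genes were also lower, at -0.081, -0.071 and -0.083, against 0.0063, 0.0027 and 0.0094 with scaling. Fam160a1 (r = 0.72) and Atp1b1 (0.66), a sodium pump subunit, were nearest to Fgf7, with r = 0.51 and 0.40 within groups.

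Fgf10 (ENSMUSG00000021732, chr13:118669791-118792115, plus strand), the other ligand of the epithelial FGFR2 form, had 37.2, 38.7, 31.03 and 37.8 CPM in the mono-culture. It fell with clone V to 7.63, 22.1, 20.2 and 23.99 CPM (1.96-fold, log2 -0.97 ± 0.23, adjusted p = 0.00074) and with KPC1 to 23.6, 25.6, 21.01 and 19.6 CPM (1.61-fold, log2 -0.69 ± 0.23, adjusted p = 0.012). Neither group overlapped the mono-culture. With clone H the values were 24.4 to 28.1 CPM, also below the mono-culture range, but the test was not passed (log2 -0.47 ± 0.23, adjusted p = 0.088). Clones K and N had the highest means, 43.5 ± 8.92 and 40.7 ± 9.41 CPM, with log2 fold changes of 0.26 and 0.17 that did not pass. The fall with KPC1 did not pass without the libraries numbered 4 (log2 -0.62, adjusted p = 0.076). Among clones the range was 1.24 on the log2 scale (adjusted p = 0.00072). Foxo3 (r = 0.87) and Dok4 (0.86) were the nearest genes, with r = 0.80 and 0.75 within groups.

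Fgf18 (ENSMUSG00000057967, chr11:33117430-33147400, minus strand), a ligand known from bone and lung growth, was scarce in the mono-culture at 1.43, 1.98, 0.608 and 1.37 CPM (26, 36, 8 and 30 counts). With clone K it had 1.27, 2.41, 1.32 and 0.765 CPM (27, 37, 25 and 17 counts), which overlapped the mono-culture and did not pass the test (adjusted p = 0.95). In the other 7 co-cultures all 28 libraries had 0 to 14 counts. The 4 libraries together held 4 counts with KPC1, 6 with clone T, 9 with clone V, 10 with clone H, 24 with clone E, 24 with clone N and 26 with clone M, against 100 in the mono-culture. Adjusted for library size, summed counts were 24.3 times lower with KPC1 (exact 95% interval 9.19 to 90.9), 16.9 with clone T (7.50 to 47.2), 11.8 with clone V (5.95 to 26.5), 11.04 with clone H (5.76 to 23.7), 4.30 with clone E (2.73 to 7.03), 4.16 with clone N (2.64 to 6.79) and 3.42 with clone M (2.20 to 5.49).

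All 7 falls of Fgf18 passed the test, those with KPC1 and clone T with adjusted p = 4.1e-05 and 0.00012. The call with clone M (log2 -1.73 ± 0.65, adjusted p = 0.0495) was lost in 23 of the 36 fits that left out 1 library (log2 -2.28 to -1.43) and without the libraries numbered 4 (-1.44, adjusted p = 0.10). That with clone N was lost without clone N replicate 4 (-1.73, adjusted p = 0.053). The fall with clone E went from -2.09 to -2.81 without clone E replicate 2, and that with KPC1 from -4.40 to -5.74 without KPC1 replicate 3, which held 3 of the 4 counts of its group. Mono-culture replicate 3, the lowest at 0.608 CPM, lay below 1 library with clone E (0.671 CPM) and 1 with clone M (0.789 CPM). Elmo2 (r = 0.88) and Cacna1a (0.88) were nearest to Fgf18, with r = 0.73 and 0.69 within groups. The 250 bases before its start (GRCm38.p6, chr11:33147401-33147650, minus strand, shown 5′ to 3′ on that strand) are given because Fgf18 had the largest fall, and no letters are in capitals because neither TGACGTCA nor TGANTCA had a match in this window.
Fgf18: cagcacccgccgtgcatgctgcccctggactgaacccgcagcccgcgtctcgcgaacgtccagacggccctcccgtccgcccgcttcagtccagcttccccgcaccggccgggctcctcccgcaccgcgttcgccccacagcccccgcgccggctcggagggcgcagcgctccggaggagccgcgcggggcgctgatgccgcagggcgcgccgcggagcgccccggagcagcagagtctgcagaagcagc

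Hgf (ENSMUSG00000028864, chr5:16553495-16620152, plus strand) had 19.03 to 27.1 CPM in the mono-culture (mean 22.7 ± 3.71). It rose with clone N (33.98 to 41.6 CPM, 1.63-fold, log2 0.71 ± 0.14, adjusted p = 0.00019), clone E (30.3 to 45.6 CPM, 1.62-fold, log2 0.70 ± 0.14) and clone H (25.03 to 35.4 CPM, 1.35-fold, log2 0.43 ± 0.14, adjusted p = 0.011). With clones N and E the groups did not overlap the mono-culture, and with clone H they did. The call with clone H was lost without mono-culture replicate 2 (log2 0.36, adjusted p = 0.052), without the libraries numbered 4 (0.37, adjusted p = 0.068) and without scaling beyond library size (0.34, adjusted p = 0.061). With the other 5 partners the log2 fold change was 0.090 to 0.29 and did not pass. The range among clones was 0.62 on the log2 scale (adjusted p = 0.00055), under the median of 0.70 over all genes. Pde1a (r = 0.76) and Col28a1 (0.75) were the nearest genes, with r = 0.45 for each within groups.

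**Figure D4:**
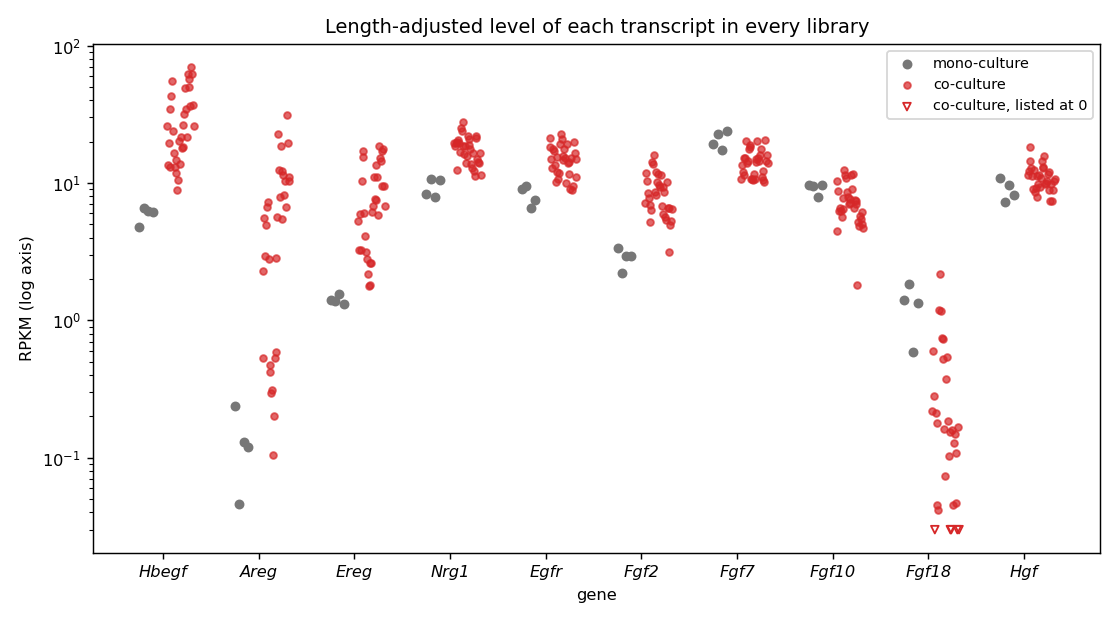
RPKM of each gene (log axis) in the 4 mono-culture libraries (grey) and the 32 co-culture libraries (red); open triangles at the lower edge mark co-culture libraries listed at 0. Fgf7 has the highest mono-culture values (17.4 to 23.8) and Hbegf the highest co-culture values (up to 69.6), while Areg spans 0.104 to 31.3 in co-culture.

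Per length, the order of the 10 genes in mono-culture was Fgf7 (20.8 ± 2.95 RPKM), Nrg1 (9.40 ± 1.46), Fgf10 (9.18 ± 0.855), Hgf (8.99 ± 1.60), Egfr (8.15 ± 1.34), Hbegf (5.93 ± 0.807), Fgf2 (2.87 ± 0.493), Ereg (1.41 ± 0.0966), Fgf18 (1.29 ± 0.522) and Areg (0.134 ± 0.0801; SD, n = 4 each). Ranges from Nrg1 to Egfr overlapped one another, as did those of Ereg and Fgf18. In co-culture the mean over 32 libraries was highest for Hbegf (29.98 RPKM, range 8.84 to 69.6), then Nrg1 (17.7), Egfr (14.9), Fgf7 (14.3), Hgf (11.05), Fgf2 (8.56), Ereg (8.31), Fgf10 (7.35), Areg (7.26) and Fgf18 (0.329). These means pool groups that differ in their order. Hbegf had the highest group mean with 6 of the 8 partners (18.1 RPKM with clone E to 51.4 with clone V). With clone K, Nrg1 (23.8) and Fgf7 (17.2) were above Hbegf (13.97), and with clone M, Egfr (19.4) and Nrg1 (16.1) were above it (13.3).

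KPC1 was compared with the mean of the 7 clones. Of the 10 genes 5 were called, against 41.1% of all genes tested, and the 5 were Areg, Ereg and Hbegf, which were higher, and Fgf2 and Fgf18, which were lower. Areg was 6.14-fold higher (log2 2.62 ± 0.33, adjusted p = 1.2e-06), Ereg 2.06-fold (1.04 ± 0.22, 0.00047) and Hbegf 2.05-fold (1.03 ± 0.21, 0.00026), where the mean of clones is a mean of log values that includes the low clones K and M. Fgf2 was 1.76-fold lower (-0.82 ± 0.19, adjusted p = 0.00096). Fgf18 was lower at log2 -2.05 ± 0.82 (adjusted p = 0.044), a call lost in 15 of the 36 fits that left out 1 library and without the libraries numbered 4 (-1.80, adjusted p = 0.076), and -3.39 without KPC1 replicate 3. Nrg1 (-0.33), Fgf7 (0.27) and Fgf10 (-0.44) had adjusted p of 0.058, 0.053 and 0.055, and Egfr and Hgf did not pass (0.59 and 0.089). With replicate number added to the fit as a block, Nrg1, Fgf7 and Fgf10 passed (adjusted p = 0.021, 0.044 and 0.036). Clone V and KPC1 overlapped for Hbegf and Ereg, so the higher level of KPC1 was against the clones on average, not against each clone.

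The other genes of these pathways were described from lists for the mean of the 7 clones against the mono-culture, where 24.3% of all genes rose and 24.9% fell. Of 10 further ErbB ligands and receptors 7 were tested, of which 3 rose and 2 fell. Tgfa, an EGFR ligand, rose 2.40-fold (2.41 ± 0.995 CPM in the mono-culture, adjusted p = 0.0049) and was highest with clone T at 14.9 CPM. Btc, betacellulin, rose 1.64-fold (adjusted p = 0.0038) and ranged from 3.43 CPM with clone K, under its mono-culture mean of 4.67 CPM, to 19.5 CPM with clone T. Erbb2, the co-receptor, rose slightly (log2 0.20 ± 0.079), Erbb3, an NRG1 receptor, fell 1.62-fold to a clone mean of 3.45 CPM (adjusted p = 0.0090), and Nrg2 fell 1.61-fold at 1.54 CPM over all libraries. Erbb4 was at 0.0904 CPM or less in every group mean.

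Of 8 genes that release ErbB ligands or restrain the receptors, 4 rose and 1 fell. Errfi1, an inhibitor of EGFR kinase that EGFR signalling induces, rose 2.15-fold (log2 1.10 ± 0.14, adjusted p = 1.3e-07) and was highest with clone V. Rhbdf2, which brings ADAM17 to the cell surface, rose 1.69-fold and was highest with KPC1 (33.1 CPM), and Cd9 and Rhbdf1 also rose. Adam10 fell 1.13-fold (adjusted p = 0.0495), and Adam17 had a log2 fold change of 0.080 ± 0.075 that did not pass the test.

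Of 18 other FGF genes 4 passed the filter. Fgf11, which codes for an intracellular family member, rose 1.67-fold from 0.972 CPM, and Fgf15, at 0 counts in mono-culture, had its highest group mean with KPC1 (1.51 CPM). Of 16 FGF receptors and co-receptors 12 were tested, of which 7 rose and 2 fell, with a list median of 0.30 on the log2 scale. The heparan sulphate proteoglycan Gpc1 rose 1.84-fold (adjusted p = 8.5e-07) and the receptor Fgfr3 1.68-fold. The heparan sulphatase Sulf2 fell 1.75-fold (adjusted p = 0.0018) and Fgfr2 1.87-fold (adjusted p = 0.0051), but Fgfr2 ranged from 1.10 CPM with KPC1 to 18.7 CPM with clone K, above its mono-culture mean of 7.11 CPM.

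Of 11 genes around Hgf 8 were tested and 4 rose. Met, the receptor, had a log2 fold change of 0.31 ± 0.14 (adjusted p = 0.056). Plat, tissue plasminogen activator, rose 2.14-fold (adjusted p = 5.1e-07). Hgfac, the protease that activates HGF, rose from 0.0694 CPM to a clone mean of 2.83 CPM, and Spint2, which inhibits such proteases, from 0.108 to 4.09 CPM, and both were highest with clone T (9.91 and 13.7 CPM). Clone T also had a high epithelial sum (540 ± 239 CPM), and the part of tumour cell RNA in Tgfa, Btc, Hgfac and Spint2 was not tested.

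Of 12 MAPK feedback genes and ETS targets 11 rose and 1, Spry2, fell (1.58-fold), with a list median of 1.33 against 0.0058 for all genes. Etv4, an ETS factor downstream of FGF and EGFR signals, rose from 7.17 ± 0.957 CPM to a clone mean of 63.4 CPM (log2 2.96 ± 0.22, adjusted p = 1.1e-11), and Dusp4 from 30.9 ± 1.70 to 145 CPM (log2 2.09 ± 0.20, adjusted p = 5.9e-10). By partner, 9 of the 12 genes rose with clones K and M and 11 with each of the other 6. Of all genes tested, 19.1% were called in either direction with clone K, 23% with clone M and 32% to 59% with the others. The summed CPM of the list was 411 ± 25.2 in the mono-culture, 589 ± 77.5 with clone K, 590 ± 115 with clone M and between 813 ± 101 (clone E) and 1059 ± 175 (KPC1) in the others. Of 12 immediate early genes 6 rose and 0 fell, with a median of 0.89, among them Fosl1 (log2 2.00 ± 0.24), highest with KPC1, and Egr3 (1.72 ± 0.23), highest with clone M.

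**Figure D5:**
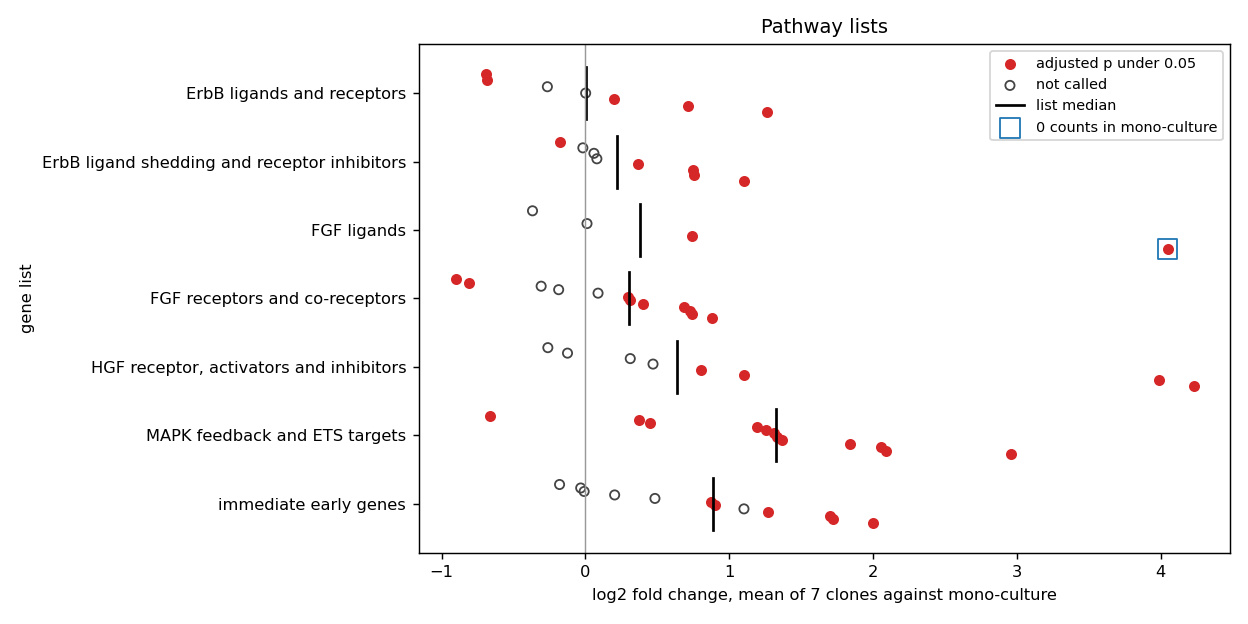
Fitted log2 fold change of each tested gene of 7 lists (horizontal axis) for the mean of 7 clones against the mono-culture; filled points passed an adjusted p of 0.05, open points did not, and vertical lines are list medians. In the MAPK list 11 of 12 genes lie to the right of 0 and Spry2 to the left. Fgf15, boxed, had 0 counts in the mono-culture, so its position depends on the prior count, and those of Hgfac and Spint2 rest on few mono-culture counts.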

How the data were processed

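Per the labels, 200 ng of RNA per sample went into poly(A)-selected, strand-specific libraries (14 cycles), read as 76 bp pairs. The submitters' processing notes name STAR, featureCounts, edgeR and mm10; their versions, the annotation and whether counting used strand are not given in the sources used here. The authors deposited whole-number read counts for 39017 genes and RPKM values, scaled to gene length and library size, for 37746 of them. RPKM was used for levels between genes and in alternatives.

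Counts were filtered with filterByExpr (14439 genes kept), scaled by TMM (factors 0.957 to 1.07) and fitted in edgeR 4.0.16 (R 4.3.3) with glmQLFit (robust) and glmQLFTest over 36 libraries and 9 groups. P-values were adjusted by Benjamini-Hochberg over all genes tested, with 0.05 as the threshold. SEs were derived from the fold change and F-statistic. Contrasts were each partner against mono-culture, the mean of 7 clones against mono-culture, KPC1 against that mean and an F-test among clones. In simulated data for the mean of 7 clones (14439 genes), 95% of 2-fold and 100% of 4-fold changes were recovered, and 5.34% of calls were false. Changes were put into 100 genes per fold, all above a minimum mean level and far fewer than were called in the data. Recovery at the levels of Fgf18, or of Areg in the mono-culture, was not measured. Log2 CPM used a prior count of 1, and log2 RPKM pseudocounts of 1 or 0.1. Limma 3.58.1 and DESeq2 1.42.0 served as alternatives.

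The members and lists were chosen with earlier results of these data known. Named genes were the members, up to 2 highest and 2 lowest called genes per list with a mean of at least 2 CPM, and the 2 genes most like each member, 1 of which is not reported here; Erbb2, Erbb4, Nrg2, Cd9, Rhbdf1, Adam17, Fgf11, Fgf15, Met and Plat were added after their values were seen. No 2 libraries of a group agreed within sampling noise. Gene positions come from GENCODE vM21 and promoters from RefSeq (GRCm38.p6). Overlapping or antisense genes and near-identical copies are uncertain.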

Additional observations from a re-analysis of the deposited data

Results flagged for a closer look

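In 3 of the 90 sets of 4 libraries (10 genes in 9 groups) 1 library lay far from the other 3 by Dixon's test, where chance flags about 1 in 20 sets, or 4.5. They were Nrg1 with clone E replicate 4 (28.8 CPM against 46.8 to 47.8, gap over range 0.948), Egfr with clone K replicate 2 (160 CPM, 0.835) and Egfr with clone V replicate 2 (161 CPM, 0.914).

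The response to co-culture differed among the 7 clones for 9 genes, in an F-test that called 67.5% of all genes tested. The adjusted p of the F-test was 1.2e-06 for Hbegf, 5.2e-08 for Areg, 6.1e-08 for Ereg, 0.0098 for Nrg1, 0.0045 for Fgf2, 0.00020 for Fgf7, 0.00072 for Fgf10, 6.4e-05 for Fgf18 and 0.00055 for Hgf.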

How the results depend on the processing

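Each member was compared in 11 contrasts under 10 alternatives, where they applied, and with each of the 36 libraries left out in turn. Counts of members called stayed within 1.5 times of the reported count apart from 2 contrasts. Counts of all genes called stayed within 1.5 times in every contrast and alternative. For KPC1 against the mean of the clones it was 5 of 10, 8 with a replicate block and 4 to 7 without single libraries. For clone K it was 5, and 3 to 5 without single libraries (3 without clone K replicate 1 or mono-culture replicate 4). Signs turned in 3 results, none of them called. Fgf18 with clone K had a log2 fold change of 0.068 that ran from -0.28 to 0.31 without single libraries, Egfr in KPC1 against the clones 0.12 and -0.030 to 0.26, and Hgf with clone K 0.090 and -0.053 without the libraries numbered 4, an alternative chosen after seeing the data. On the log2(RPKM + 1) scale the fold changes of Areg and Fgf18 for the mean of the clones were 2.01 and -0.78, since this pseudocount shrinks low genes, and both remained called. On that scale 39.5% of all genes called with clone K were higher, against 54.6% in the reported fit, and for the mean of the clones the share was 40.7%, and 40.4% with no scaling beyond library size, against 49.4%. A minimum of 10 counts in every library left out Areg and Fgf18, so that 8 members were tested.

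Replicate numbers were not taken as pairs, because not every pair of libraries with the same number correlated above 0.1. This rule is strict, and failing it does not show that libraries with the same number were independent. Of 144 pairs with the same number in different groups, 68 correlated above 0.1 (range -0.58 to 0.69). The mean correlation was 0.11 with the same number, 0.14 when only co-cultures were used, and -0.035 with different numbers. Of 36 libraries 24 correlated best with their own number, namely 24 of the 32 co-culture and 0 of the 4 mono-culture libraries. In the sample titles, running numbers list the co-cultures replicate by replicate and the mono-culture libraries after them. The labels do not say whether this order marks a day or a batch. Beside the 8 given above, the replicate block called 9 members with clone V and 10 among clones (8 and 9 without it), Egfr being the gene added in both (log2 0.47, adjusted p = 0.0039 with clone V), and the same number in the other contrasts. Without the block, 58.3% of all genes tested were called with clone V and 67.5% among clones. With the block, counts of all genes called stayed within 1.5 times of those without it. For KPC1 against the mean of the clones it added Nrg1, Fgf7 and Fgf10. Depth limits Areg in the mono-culture and with clones K and M, and Fgf18 in the 7 co-cultures without clone K, where single libraries held 0 to 14 counts.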
